A study of Mus musculus with 2 samples.

Results

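The transcription factors described here are 9 regulators of macrophage lineage and identity, namely Spi1, Maf, Spic, Id1, Id3, Zeb2, Cebpa, Cebpb and Rbpj, taken by gene symbol from a table of 22322 genes. Each symbol matched 1 Ensembl gene, and all 9 reached the floor of 1 FPKM (fragments scaled to transcript length and library size) in both libraries. The table compares 1 library of liver macrophages from FABP7 KO mice with 1 library from WT mice. All mice were C57BL/6 males, 6 to 8 weeks old by the study's methods, and carried MC38 cells, a mouse colon carcinoma line. In each, 500000 of these cells had been given through the spleen in 100 µl, and liver macrophages were isolated on day 10, by F4/80 positive selection per the study's methods. A liver without tumor cells is not among the samples. FABP7, a fatty acid binding protein, was deleted in the whole animal and not in macrophages alone. A label field of the KO sample reads knockdown where its title reads KO. How many mice went into a library is not stated. Since each genotype has 1 library, no value has a replicate check and no test was run.

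Transcription factors decide whether a blood progenitor becomes a macrophage and whether that macrophage becomes a Kupffer cell, the resident macrophage of the liver sinusoid. PU.1 (gene Spi1) and the C/EBP factors open the myeloid program, and c-MAF keeps mature macrophages out of division. SPIC, ID1, ID3, ZEB2 and RBPJ have been linked in the mouse to tissue macrophage identity. RBPJ carries the Notch signal to DNA, and ID proteins are classical targets of BMP signaling. In the mouse liver, sinusoidal endothelial and stellate cells are known to offer Notch and BMP ligands to incoming monocytes.

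Fabp7 stood at 0.69 FPKM in the FABP7 KO library and at 354 FPKM in the WT library. Depth, estimated from the steps between low values, was about 18000000 fragments in the KO library and 18150000 in the WT library. From this depth and the longest annotated transcript, 95% intervals (exact Poisson for a level, exact binomial for a KO over WT fold) were computed for the lineage factors. They cover counting error only and say nothing of the spread between mice. The pan-macrophage markers were strong in both libraries, with C1qb at 2944 FPKM in KO and 2422 FPKM in WT. Clec4f, which defines Kupffer cells, stood at 4156 FPKM in KO and 3188 FPKM in WT. Kupffer cell markers were divided, with 9 of 15 higher in the KO library and 6 lower. In bulk RNA, fewer cells of a type and less RNA per cell cannot be told apart. Markers of other cells differed between the libraries. Counted over all listed genes with no floor, 13 of 15 neutrophil markers had higher values in the KO library (summed 120 FPKM in KO and 42.5 FPKM in WT), as did 14 of 15 sinusoidal endothelial markers (414 FPKM in KO and 224 FPKM in WT), 18 of 20 hepatocyte markers (1268 FPKM in KO and 636 FPKM in WT) and 10 of 12 stellate markers (177 FPKM in KO and 76.8 FPKM in WT). On the same count, all 10 B and plasma cell markers (46.5 FPKM in KO and 17.8 FPKM in WT) were higher. So were all 8 erythroid markers (65.2 FPKM in KO and 25.9 FPKM in WT). T and NK cell markers had 11 of 14 higher and 3 lower (46.1 FPKM in KO and 25.7 FPKM in WT). Dendritic cell markers had 7 of 8 higher and 1 lower (48.2 FPKM in KO and 30.3 FPKM in WT). Epithelial markers had 5 of 8 higher and 3 lower (7.31 FPKM in KO and 7.95 FPKM in WT). All 12 cell division markers were at least 2-fold lower in the KO library (172 FPKM in KO and 691 FPKM in WT). For the counts with no floor, no share over all genes was computed. At the floor in both libraries, 7 of 7 neutrophil, 13 of 14 sinusoidal endothelial, 18 of 20 hepatocyte and 5 of 5 stellate markers were higher in KO. What part these marker differences have in the values of the lineage factors was not tested.

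All 9 lineage factors had higher values in FABP7 KO macrophages than in WT macrophages, and none differed by 2-fold. Cebpa showed the widest gap (1.86-fold) and Id3 the next (1.58-fold), Cebpb, Rbpj, Spic, Maf and Zeb2 lay between 1.19-fold and 1.34-fold, and Spi1 and Id1 were within 1.07-fold. A gene was counted as different when its log2 ratio of FPKM + 1, KO over WT, was 1 or more, or -1 or less; this rule sets a size and tests nothing. By this rule 0 of 9 lineage factors were called, beside 5.16% of the 10770 genes at or over the floor in either library (2.21% higher and 2.95% lower). At the looser mark of 1.5-fold higher, 2 of 9 were counted, beside 8.02% of all measured genes. The median log2 ratio of the 9 factors was 0.28, against 0.00361 for all measured genes, whose quartiles were -0.24 and 0.24. A log2 ratio above 0 was found in 9 of 9 factors and in 50.3% of all measured genes. No such share over all genes was computed for the list counts made with no floor. Among the 5235 genes at 10 FPKM or more in both libraries, where 8 of the 9 factors lie, 44.8% had a ratio above 0 and the median was -0.037. Cebpa, Id3, Cebpb, Rbpj, Spic, Maf and Zeb2, 7 of the 9, lay above the upper quartile of all measured genes, and Spi1 and Id1 did not.

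**Figure D1:**
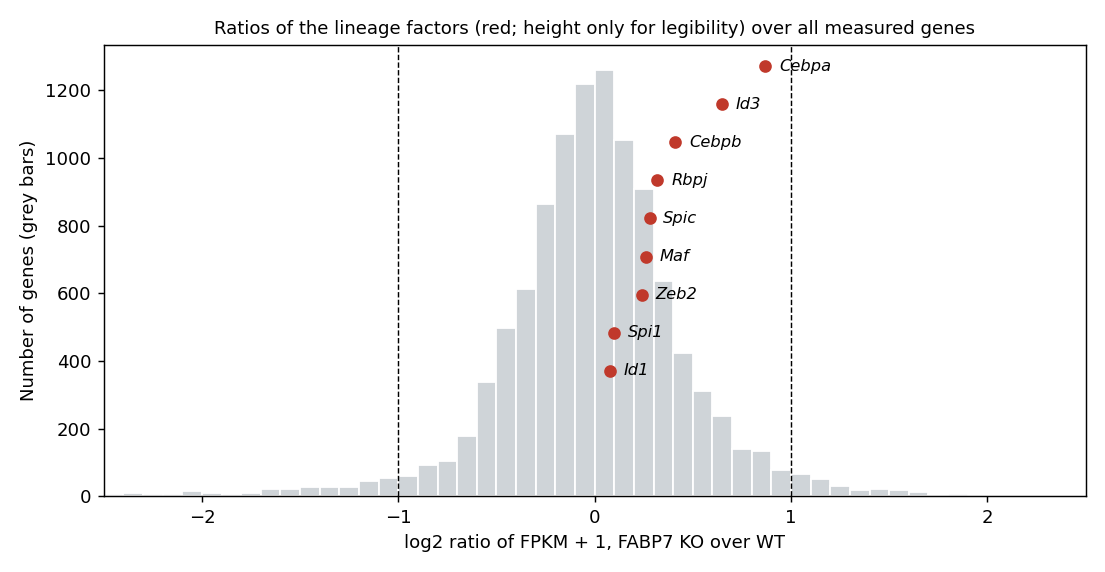
Difference between FABP7 KO and WT as the log2 ratio of FPKM + 1 (x axis), of the 9 lineage factors (red points, whose height has no meaning) over the histogram of all 10770 measured genes (grey bars, number of genes on the y axis, with 25 genes beyond the axis left out). All red points lie right of 0 and left of the dashed line at 1, with Id1 lowest at 0.08 and Cebpa highest at 0.87.

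The level of a gene in FPKM is scaled to its length, so the factors can be ordered within a library. Spi1 was the most abundant in both, at 243 FPKM in the KO and 227 FPKM in the WT library, and Rbpj the least, at 9.77 FPKM in KO and 7.62 FPKM in WT. In the KO library the order below Spi1 was Id3, Zeb2, Maf, Spic, Cebpa, Id1 and Cebpb, and only Cebpa and Id1 had overlapping counting intervals as neighbors. In the WT library it was Zeb2, Id3, Maf, Spic, Id1, Cebpb and Cebpa, where Zeb2 and Id3 overlapped, as did Id3 and Maf. Cebpa thus took place 6 in the KO library and place 8 in the WT library, while Spi1, Maf, Spic and Rbpj held the same place in both. The place of Cebpa next to Cebpb is subject to the exon overlap of Cebpb with another gene, given below. Among all 22322 genes, Spi1 ranked 266 in KO and 325 in WT, and Cebpa ranked 1040 in KO and 2108 in WT. The 9 factors summed to 857 FPKM in the KO library and 694 FPKM in the WT library.

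**Figure D2:**
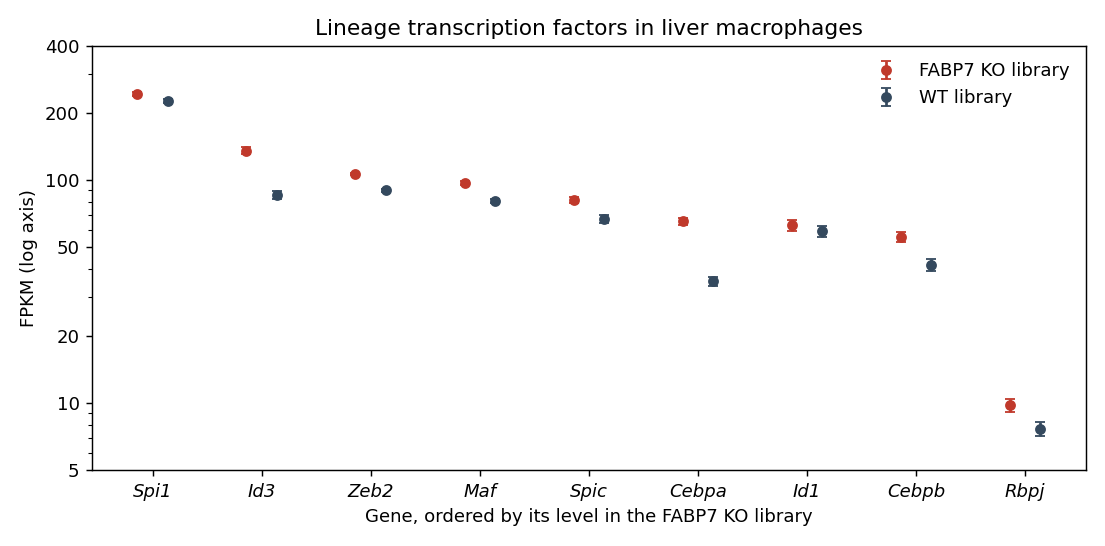
Level in FPKM (y axis, log scale) of each lineage factor (x axis) in the FABP7 KO library (red, left) and the WT library (dark, right), with 95% Poisson intervals that cover counting error only. The pairs of Cebpa (65.3 in KO and 35.1 in WT) and Id3 (136 in KO and 86.0 in WT) stand farthest apart, and the intervals of Id1 overlap.

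Spi1 (ENSMUSG00000002111) encodes PU.1, the ETS factor without which macrophages do not form. It was at 243 FPKM in the KO library and 227 FPKM in the WT library, resting on about 8897 fragments in KO and 8382 in WT. The fold of 1.07 had a counting interval of 1.04 to 1.10, and 38.9% of measured genes had a ratio at least as high. Spic (ENSMUSG00000004359) encodes a close ETS relative of PU.1 that is needed for the iron-recycling macrophages of the mouse spleen and is also made by Kupffer cells. It stood at 81.4 FPKM in KO and 67.0 FPKM in WT, a fold of 1.22 (1.15 to 1.28). PU.1 mRNA was therefore 2.99 times SPIC mRNA in the KO library and 3.39 times in the WT library. Spib, the third gene of this subfamily, was under the floor, at 0.46 FPKM in KO and 0.10 FPKM in WT.

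Spic is known to be switched on when heme removes its repressor BACH1. Bach1 was at 21.5 FPKM in KO and 14.7 FPKM in WT (log2 ratio 0.52), and Bach2 at 2.25 FPKM in KO and 0.97 FPKM in WT. Genes of iron recycling that go with SPIC in mouse macrophages more often had lower values in KO than higher ones. Of 10 listed, 3 had a ratio above 0 and 7 below, with a median of -0.11. Among the 3, Fth1 (1327 FPKM in KO and 1296 FPKM in WT) was close in both libraries. So was Slc11a1, named after its values were seen (273.99 FPKM in KO and 273.93 FPKM in WT). A single gene, the transferrin gene Trf, was at least 2-fold higher, at 642 FPKM in KO and 306 FPKM in WT, and Trf is also among the hepatocyte markers. Cd163, the hemoglobin scavenger receptor, had 123 FPKM in KO and 216 FPKM in WT, and Vcam1, an adhesion molecule, had 243 FPKM in KO and 393 FPKM in WT. Both differed by less than 2-fold. The iron exporter gene Slc40a1 (1464 FPKM in KO and 1615 FPKM in WT) and the heme oxygenase gene Hmox1 (845 FPKM in KO and 895 FPKM in WT) were close in both libraries.

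The start region of Spic is shown because of the iron-recycling genes described beside it. For 6 of the 9 factors the RefSeq table of GRCm38.p6 gave a window of 250 bases before to 50 after an annotated start (Spic, Id3, Zeb2, Cebpa, Cebpb and Rbpj), and Spi1, Maf and Id1 had no window in it. Each window was searched on both strands for GAGGAA (PU.1 core), TTGCNNAA (C/EBP), CANNTG (E-box, the site of E proteins), TGGGAA (RBPJ core), TGCTGA (MAF), TGANTCA (AP-1) and TGACGTCA (cAMP response element). The letters TATAAA of the core promoter were searched as well. The matches describe letters and not bound sites. Positions count from the annotated start as +1. The Spic window (chr10:88682974-88683273, minus strand) held 1 TGCTGA at -198, in capitals, a match found in 19.5% of all 32851 windows, and 1 E-box letter match at 35, found in 72.3%.
Spic: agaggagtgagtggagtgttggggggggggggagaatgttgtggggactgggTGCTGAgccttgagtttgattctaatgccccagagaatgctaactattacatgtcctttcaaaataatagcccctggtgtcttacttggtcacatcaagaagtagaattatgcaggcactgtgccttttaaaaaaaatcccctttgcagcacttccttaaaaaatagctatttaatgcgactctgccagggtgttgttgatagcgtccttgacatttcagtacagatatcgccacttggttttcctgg

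Maf (ENSMUSG00000055435) encodes c-MAF, a leucine zipper factor that restrains the division of mature mouse macrophages. Maf was at 97.1 FPKM in KO and 80.7 FPKM in WT, a fold of 1.20 (1.17 to 1.24). It rested on about 11114 fragments in KO and 9313 in WT, and 23.3% of measured genes had a ratio at least as high. The small MAF proteins lack an activation domain and pair with BACH and other factors. Their genes summed to 35.6 FPKM in KO and 23.0 FPKM in WT, most of it from Mafg at 24.2 FPKM in KO and 13.4 FPKM in WT. Mafg, with a log2 ratio of 0.81, had the highest ratio among the 14 paralogs and partners at the floor in either library, 2 of which reached it in KO only. Of all 19 listed, with no floor, 16 had higher values in KO and 2 lower, and the median was 0.33. Among the 14 at the floor, 12 had a ratio above 0 and 2 below, with a median of 0.41.

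Id1 (ENSMUSG00000042745) and Id3 (ENSMUSG00000007872) encode small helix-loop-helix proteins without a DNA-binding region, which capture E proteins and keep them off the E-box. Id3 was at 136 FPKM in KO and 86.0 FPKM in WT, on about 3121 fragments in KO and 1994 in WT. Its fold of 1.58 had a counting interval of 1.49 to 1.67, and 6.51% of measured genes had a ratio at least as high. Its paralog Id1 was at 62.6 FPKM in KO and 59.0 FPKM in WT, a fold of 1.06 whose interval of 0.981 to 1.15 includes no difference. Id2, which is not among the 9 but belongs to the same family, was at 138 FPKM in KO and 139 FPKM in WT. Id3 was thus 2.17 times Id1 in the KO library and 1.46 times in the WT library, and it reached 0.980 of the Id2 level in KO against 0.620 in WT.

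The partners of the ID proteins are made by Tcf3, Tcf4 and Tcf12. Tcf3 was at 18.0 FPKM in KO and 13.3 FPKM in WT, Tcf4 at 20.99 FPKM in KO and 16.5 FPKM in WT and Tcf12 at 16.2 FPKM in KO and 16.8 FPKM in WT. Summed over Id1, Id2 and Id3, the ID genes came to 337 FPKM in KO and 284 FPKM in WT. This sum was 6.10 times that of the 3 E protein genes in the KO library and 6.09 times in the WT library. Id3 made up more of the ID sum in KO, while the ratio of ID to E protein mRNA differed little. The log2 ratio of Id2 was so near 0 that its sign depended on how the KO library was scaled.

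The start region of Id3 is shown as that of 1 of the 2 factors past 1.5-fold. It lies at chr4:136143572-136143871 (plus strand), and the capitals mark 3 matches to GAGGAA on the opposite strand (TTCCTC), at -208, -201 and 29. At least 1 such match was found in 28.3% of all windows. The Id3 window was 60.0% G and C with 19 CpG, against medians of 52.7% and 7 over all windows, and it held none of the other letters searched.
Id3: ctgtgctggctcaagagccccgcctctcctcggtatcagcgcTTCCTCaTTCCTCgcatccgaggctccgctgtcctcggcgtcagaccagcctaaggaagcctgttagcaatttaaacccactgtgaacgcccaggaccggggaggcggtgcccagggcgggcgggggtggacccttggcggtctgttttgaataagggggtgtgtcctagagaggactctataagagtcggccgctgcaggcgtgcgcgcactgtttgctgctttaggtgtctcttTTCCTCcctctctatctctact

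BMP and TGF-beta ligands act through SMAD proteins, and BMP signaling is known to switch on Id1 and Id3. Of all 29 listed genes of these pathways, with no floor, 23 had higher values in KO and 5 lower, and the median was 0.32. Of the 22 that reached the floor, 3 did so in KO only (Bmp2, Gdf2 and Tgfbr3). Among these 22, 18 had a ratio above 0 and 4 below. Those at least 2-fold higher were the ligand gene Bmp2, at 4.65 FPKM in KO and 0.95 FPKM in WT, and the endothelial coreceptor gene Eng, at 21.1 FPKM in KO and 9.67 FPKM in WT. None was at least 2-fold lower. Gdf2, the BMP9 gene, was at 2.22 FPKM in KO and 0.79 FPKM in WT, and the coreceptor gene Tgfbr3 at 1.44 FPKM in KO and 0.30 FPKM in WT. The most abundant were Tgfb1 (88.4 FPKM in KO and 77.6 FPKM in WT), Tgfbr2 (61.9 FPKM in KO and 41.7 FPKM in WT) and Acvrl1, the BMP9 receptor (58.0 FPKM in KO and 44.9 FPKM in WT). Endothelial cells are also known to express Id1, Id3 and Eng, and 10 of 15 sinusoidal endothelial markers were at least 2-fold higher in the KO library, with Oit3 at 13.1 FPKM in KO and 2.88 FPKM in WT and none at 0. Their part in the Id3 value was not tested.

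Cebpa (ENSMUSG00000034957) and Cebpb (ENSMUSG00000056501) encode the leucine zipper factors C/EBPα and C/EBPβ. C/EBPα sets the myeloid path in progenitors, and C/EBPβ acts in mature and stimulated macrophages. Cebpa was at 65.3 FPKM in KO and 35.1 FPKM in WT, on about 3086 fragments in KO and 1675 in WT. Its fold of 1.86 had a counting interval of 1.75 to 1.97, and 3.26% of measured genes had a ratio at least as high. Cebpb was at 55.7 FPKM in KO and 41.6 FPKM in WT, a fold of 1.34 (1.24 to 1.45). The order of the pair by these values differed between the libraries. Cebpb shares 312 of its 1504 exon bases with Tmem189 on the other strand, and the strand setting of the counting is unknown. Whether reads from that stretch bear on the order was not tested. Cebpa was 1.17 times Cebpb in KO and 0.845 times in WT.

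Other C/EBP genes had ratios above 0 as well. Cebpg, whose product dimerizes with the others, was at 32.4 FPKM in KO and 21.5 FPKM in WT, Cebpd at 5.29 FPKM in KO and 3.03 FPKM in WT and Ddit3, the stress-induced CHOP gene, at 17.4 FPKM in KO and 10.9 FPKM in WT. Cebpz, a gene of ribosome assembly with no leucine zipper, stood apart at 15.8 FPKM in KO and 15.1 FPKM in WT. Cebpe, a factor of granulocyte maturation, was under the floor (0.13 FPKM in KO and 0.09 FPKM in WT). Cebpa, Cebpb, Cebpd and Cebpg together came to 159 FPKM in KO and 101 FPKM in WT, a fold of 1.57.

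Both start regions are shown because the pair traded places in the deposited values. Each held 1 TATAAA, in capitals, a match present in 13.6% of all windows. It began at -30 in the Cebpa window (chr7:35119043-35119342, plus strand) and at 22 in the Cebpb window (chr2:167688665-167688964, plus strand), that is, after the annotated start. Neither held the C/EBP letters TTGCNNAA, which 10.8% of windows hold. The Cebpa window also held 1 E-box letter match at 32, found in 72.3% of windows. The windows were 67.3% G and C with 29 CpG for Cebpa and 80.7% with 50 CpG for Cebpb. Both genes have 1 exon in their longest annotated transcript.
Cebpa: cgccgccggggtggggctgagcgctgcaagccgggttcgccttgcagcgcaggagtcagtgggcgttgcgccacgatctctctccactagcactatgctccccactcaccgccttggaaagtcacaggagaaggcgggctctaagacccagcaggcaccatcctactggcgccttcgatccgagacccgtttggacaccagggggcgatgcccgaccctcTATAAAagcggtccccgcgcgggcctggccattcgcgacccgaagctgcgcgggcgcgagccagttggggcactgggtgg
Cebpb: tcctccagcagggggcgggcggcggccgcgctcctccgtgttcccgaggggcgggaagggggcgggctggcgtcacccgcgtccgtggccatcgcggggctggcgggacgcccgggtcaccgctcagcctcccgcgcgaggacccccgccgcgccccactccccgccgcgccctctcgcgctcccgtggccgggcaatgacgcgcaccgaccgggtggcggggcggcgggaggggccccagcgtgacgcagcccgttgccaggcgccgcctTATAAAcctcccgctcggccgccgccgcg

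Hepatocytes and neutrophils also use C/EBP factors. Of 20 hepatocyte markers, 6 were at least 2-fold higher in the KO library, with Alb at 305 FPKM in KO and 144 FPKM in WT, and none was at 0. The hepatocyte transcription factor gene Hnf4a, named after its values were seen, was at 1.52 FPKM in KO and 1.06 FPKM in WT. Of 15 neutrophil markers, 7 reached the floor in both libraries and 2 in KO only, with S100a9 at 25.3 FPKM in KO and 4.31 FPKM in WT, and only Elane was at 0, in the WT library. Their part in the Cebpa and Cebpb values was not tested. In the exons of Cebpb, 312 of 1504 bases overlap the gene Tmem189 on the other strand, which was at 24.1 FPKM in KO and 29.0 FPKM in WT. Without knowledge of strand in the authors' counting, reads from that stretch cannot be assigned. The antisense gene on Cebpa shares 51 of its 2636 exon bases.

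Genes that PU.1 and C/EBP factors are known to drive in myeloid cells showed a lower median than the factors. Over 20 such genes it was 0.06, with 13 ratios above 0 and 7 below. A single gene, Cd14, the lipopolysaccharide coreceptor, was at least 2-fold higher, at 100 FPKM in KO and 49.0 FPKM in WT, and none was at least 2-fold lower. The lysozyme gene Lyz2 was at 2631 FPKM in KO and 1387 FPKM in WT, and Csf3r, the G-CSF receptor and also a neutrophil marker, at 51.3 FPKM in KO and 27.3 FPKM in WT. Csf1r, the receptor on which macrophages depend, stood at 3173 FPKM in KO and 2372 FPKM in WT, whereas Ctss, a lysosomal protease gene, stood at 2770 FPKM in KO and 3205 FPKM in WT.

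Zeb2 (ENSMUSG00000026872) encodes a zinc finger repressor that is known to preserve the identity of tissue macrophages, Kupffer cells included, in the mouse. It was at 107 FPKM in KO and 90.1 FPKM in WT, a fold of 1.19 (1.16 to 1.21). Its paralog Zeb1 was far lower, at 4.14 FPKM in KO and 2.90 FPKM in WT, so that Zeb2 was 25.8 times Zeb1 in KO and 31.1 times in WT. Each of the 4 annotated Zeb2 start windows held 1 GAGGAA, and 2 of these windows overlap. An antisense gene shares 653 of 19942 exon bases with Zeb2 and another shares 440 of 8241 with Maf. Neither antisense gene was analysed here.

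Rbpj (ENSMUSG00000039191) encodes the DNA-binding partner of cleaved Notch receptors, which represses its targets when no Notch signal is present. It was at 9.77 FPKM in KO and 7.62 FPKM in WT, a fold of 1.28 (1.16 to 1.41) on about 965 fragments in KO and 759 in WT, the lowest level among the 9 factors. The annotation lists the processed pseudogenes Rbpj-ps1 and Rbpj-ps3, which can share reads with Rbpj. Of all 25 listed genes of the Notch pathway, with no floor, 18 had higher values in KO and 6 lower, and the median was 0.14. The other 11 aside, the 14 at the floor in either library had 8 ratios above 0 and 6 below. Their median was 0.12, and none of these reached 2-fold. The receptor gene Notch1 was at 10.1 FPKM in KO and 7.77 FPKM in WT, the target gene Hey1 at 4.59 FPKM in KO and 2.39 FPKM in WT and the coactivator gene Maml1 at 9.02 FPKM in KO and 6.52 FPKM in WT. The receptor gene Notch2, the target gene Hes1 and the ligand genes Dll1, Dll4, Jag1 and Jag2 were named after their values were seen. Notch2 was at 16.3 FPKM in KO and 17.3 FPKM in WT, Hes1 at 12.0 FPKM in KO and 10.0 FPKM in WT and Dll4 at 0.74 FPKM in KO and 0.15 FPKM in WT, under the floor like Dll1, Jag1 and Jag2. The enzymes that cut Notch were abundant, with the Adam10 gene at 118 FPKM in KO and 128 FPKM in WT.

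**Figure D3:**
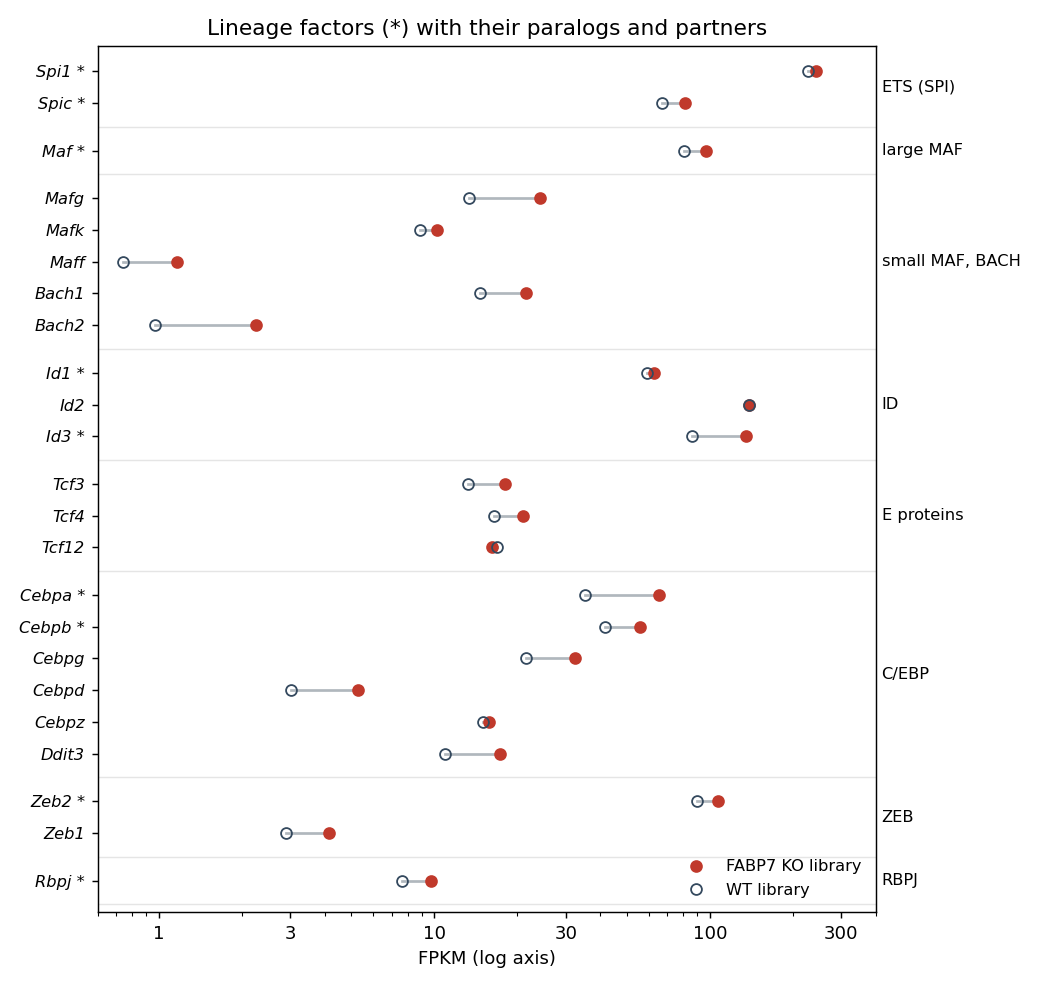
Level in FPKM (x axis, log scale) of each lineage factor (marked *) and of its measured paralogs and partners (rows, grouped by family at the right), with the FABP7 KO library as filled red points and the WT library as open points. The points of Id2 coincide near 138 while those of Id3 lie at 136 in KO and 86.0 in WT, and in the C/EBP family only the points of Cebpz nearly touch.

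Other transcription factors of macrophage and Kupffer cell identity had a median somewhat below that of the 9 factors. Of all 29 listed, with no floor, 19 had higher values in KO and 9 lower, and the median was 0.14. Among the 23 at the floor in either library, 14 had a ratio above 0 and 8 below, and the median was 0.17. The only one of them past 2-fold was Bcl6, a repressor with roles in lymphocytes and macrophages, at 10.5 FPKM in KO and 2.26 FPKM in WT. Ets2 was at 41.3 FPKM in KO and 21.2 FPKM in WT, and Mef2d at 24.9 FPKM in KO and 15.3 FPKM in WT. Nr1h3, the gene of the Kupffer cell factor LXRα, had 213 FPKM in KO and 239 FPKM in WT. Its partner gene Rxra had 144 FPKM in KO and 152 FPKM in WT, and Mef2a had 90.3 FPKM in KO and 91.4 FPKM in WT. Stat6, which carries the signal of interleukin receptors, had 96.6 FPKM in KO and 76.3 FPKM in WT. Of these most abundant factors, Nr1h3 and Rxra had lower values in KO and Stat6 a higher one, and the sign of Mef2a depended on the scaling.

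Marker genes of Kupffer cells were divided in direction. Of 15, 9 had a ratio above 0 and 6 below, none reached 2-fold and the median was 0.04. Clec4f was at 4156 FPKM in KO and 3188 FPKM in WT and Vsig4, a complement receptor gene, at 2103 FPKM in KO and 1558 FPKM in WT. Marco, a scavenger receptor gene, was at 714 FPKM in KO and 1377 FPKM in WT, Cd207 at 21.02 FPKM in KO and 34.0 FPKM in WT and Cd5l, a gene known as a target of LXRα, at 6001 FPKM in KO and 6696 FPKM in WT. The 11 pan-macrophage markers had 10 ratios above 0 and a median of 0.25, near that of the lineage factors. Of 12 monocyte markers, with no floor, 7 had higher values in KO and 5 lower. Among the 10 at the floor in either library, 5 had a ratio above 0 and 5 below.

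**Figure D4:**
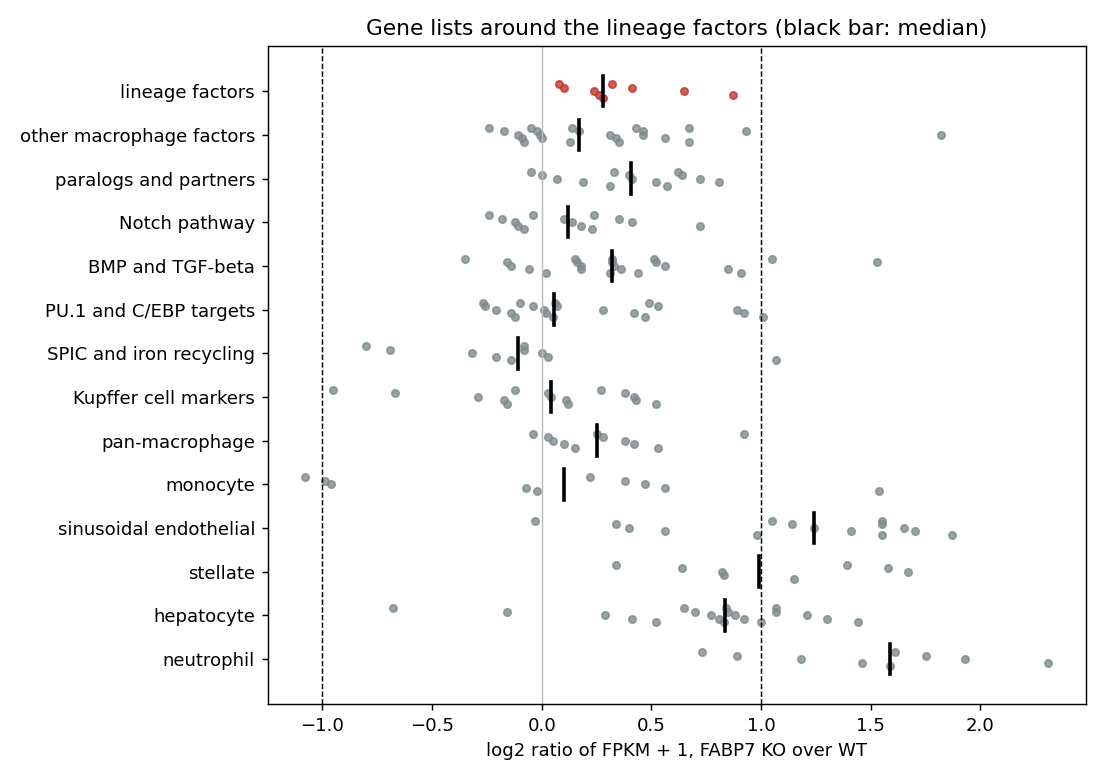
Genes of 14 lists (one line of points each, for genes at the floor in either library) by the KO over WT ratio of FPKM + 1 on a log2 scale (x axis), with list medians as black bars and dashed lines at the size rule. The lineage factors (top row, red) had a median of 0.28, beside 0.25 for the pan-macrophage markers and 0.32 for the BMP and TGF-beta genes. Kupffer cell markers had 0.04, PU.1 and C/EBP targets 0.06 and monocyte markers 0.10. The SPIC and iron recycling row was lowest, at -0.11, and paralogs and partners had 0.41. Medians of sinusoidal endothelial (1.24), stellate (0.99), hepatocyte (0.83) and neutrophil markers (1.59, or 0.89 with no floor) lay farther right.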

How the data were processed

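Liver macrophage mRNA was sequenced in 1 FABP7 KO and 1 WT library. The authors deposited FPKM values with 2 decimals, the same ones in the joint table and in those of each library. Bowtie2 2.2.8 and TopHat2 2.1.1 appear in the submitters' notes with no role stated. Not given in the sources used here were genome build, annotation, counting tool, filters and strand setting. Of 22322 IDs, 22267 had a symbol. IDs sharing a symbol were represented by the most abundant one.

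From the deposited FPKM, log2 ratios (KO over WT) used a pseudocount of 1 and genes reaching 1 FPKM in either library. Genes past an absolute value of 1 were counted. Folds with counting intervals carry no pseudocount. Depth was taken, between 10000000 and 30000000, where most low values of genes with a single GENCODE M21 transcript were whole fragments (within 0.15), which held for 91% of 145 values in KO and 87.8% of 147 in WT, against 30% by chance. The estimate takes GENCODE transcript lengths for the authors' own. The 9 factors rest on 759 to 17545 fragments. The depth and ratio steps were also run on simulated Poisson counts. These used the same transcript lengths, so they could not check those lengths, and the counting intervals were not included.

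The 9 factors and all gene lists were chosen with earlier results of these data known. From 2 of the lists, 1 gene was left out and is not reported here. Named were the 9 factors, their paralogs and partners, Fabp7, in each other list up to 4 genes with the largest ratio and up to 4 with the highest mean, and others where stated. None was named for likeness to a factor, since 2 libraries give 1 ratio. Alternatives were a pseudocount of 0.1, a floor of 5 FPKM or none, size rules of 1.5 (log2) and 1.5-fold, and 2 scalings of KO. Start windows came from RefSeq (GRCm38.p6), which may not be the build behind the FPKM. Python 3.11.15, NumPy 2.4.6, pandas 2.3.3, SciPy 1.17.1 and Matplotlib 3.10.9 were used.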

Additional observations from a re-analysis of the deposited data

How the results depend on the processing

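The log2 ratios of all 9 factors stayed above 0 and below 1 under every alternative run, with Cebpa between 0.87 and 0.93, Id3 between 0.65 and 0.70 and Id1 between 0.08 and 0.13, and their median stayed between 0.28 and 0.33. A KO scaling that set the median ratio of abundant genes to 1 (factor 0.974) moved Zeb2 to 0.28, and a KO scaling by the FPKM total that leaves out mitochondrial, erythroid and hepatocyte genes (factor 0.965) moved Zeb2 to 0.29, Maf to 0.31 and Spi1 to 0.15. These scalings divide every KO value by a constant, which is the whole of that change. At 1.5-fold, 2 of 9 factors were counted, with 1658 of all genes (864 higher and 794 lower). The number of all genes past the rule was 1006 with a pseudocount of 0.1 (562 higher) and 189 at a log2 ratio of 1.5 (50 higher and 139 lower), and 143 were higher with a floor of 5 FPKM. Of 19 other list medians, those of the monocyte (-0.05 with a floor of 5 FPKM) and epithelial markers (0.08 without a floor) changed sign. The neutrophil median was 1.59 as reported, 0.89 with no floor, 1.84 with a floor of 5 FPKM and 2.15 with a pseudocount of 0.1. The sinusoidal endothelial median was 1.24 as reported and 1.68 with a pseudocount of 0.1, and the stellate median was 0.99 as reported, 0.73 with no floor and 1.51 with a pseudocount of 0.1. A floor sets which genes enter a median, and a smaller pseudocount widens the ratios of genes with low values. Which genes moved each median was not examined. With 1 library per genotype, leaving out a replicate was not possible. Depth limits genes near 1 FPKM, such as Bmp2, Gdf2, Tgfbr3 and Dll4, more than the 9 factors.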
